A study of Mus musculus with 2 samples.

Results

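Mast cells of the connective tissue type made up 106 of the 23816 single cells recovered from nasal tissue of 2 mice. A barcode was taken as a cell with at least 1000 counted transcript molecules (UMIs), at least 300 genes and at most 15% of its UMIs from mitochondrial genes. A cell was taken as a mast cell with at least 2 UMIs of Cpa3 and at least 2 of the other 5 markers Cma1, Mcpt4, Tpsb2, Kit and Ms4a2 detected. This gave 74 of 14136 cells in mouse 1 (0.524%, 95% Clopper-Pearson interval 0.411 to 0.657%) and 32 of 9680 cells in mouse 2 (0.331%, 0.226 to 0.466%). Both animals were male wildtype C57BL/6J mice without treatment, so the series holds 1 group, and the sources used here give no age for them. Each mouse gave 1 droplet library from tissue labelled olfactory epithelium, which was digested with enzymes, sieved and treated with erythrocyte lysis solution. Values are given for both mice, differences between the mice were not tested, and intervals cover counting error only.

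Mast cells are long-lived tissue immune cells whose granules hold proteases, histamine and other amines bound to the proteoglycan serglycin and its heparin chains. The connective tissue type stores chymases, tryptases and carboxypeptidase A and carries receptors of the Mrgpr family that answer to cationic peptides, whereas the mucosal type stores Mcpt1 and Mcpt2. IgE bound to the high-affinity receptor, the growth factor receptor Kit and the alarmin receptor Il1rl1 are known routes by which these cells are activated or kept alive, and GATA2 and MITF are transcription factors of the lineage.

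The 250 bases before the start site of 5 genes of these cells are shown because the members are defined by, or share, the transcripts that begin there. The sequences are RefSeq's for build GRCm38.p6, are printed 5′ to 3′ on the gene's minus strand, and lie at chr3:20242182-20242431 (Cpa3), chr14:55944676-55944925 (Cma1), chr14:56062311-56062560 (Mcpt4), chr7:48558087-48558336 (Mrgprb2) and chr2:126618679-126618928 (Hdc). Capitals mark matches to a GATA hexamer on either strand.
Cpa3: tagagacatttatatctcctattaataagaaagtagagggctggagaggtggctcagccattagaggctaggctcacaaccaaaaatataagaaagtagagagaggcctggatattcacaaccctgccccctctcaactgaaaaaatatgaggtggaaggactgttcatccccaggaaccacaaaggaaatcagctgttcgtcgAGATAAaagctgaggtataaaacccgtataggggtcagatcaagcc 
Cma1: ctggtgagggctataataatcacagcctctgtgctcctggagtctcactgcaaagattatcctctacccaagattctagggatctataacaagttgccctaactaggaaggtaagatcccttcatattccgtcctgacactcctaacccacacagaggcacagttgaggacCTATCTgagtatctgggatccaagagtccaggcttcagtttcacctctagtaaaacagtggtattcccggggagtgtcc 
Mcpt4: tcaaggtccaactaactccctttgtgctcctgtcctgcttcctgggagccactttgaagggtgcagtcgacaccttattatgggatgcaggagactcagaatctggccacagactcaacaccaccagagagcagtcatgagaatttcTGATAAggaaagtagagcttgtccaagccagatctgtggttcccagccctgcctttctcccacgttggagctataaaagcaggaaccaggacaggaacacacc 
Mrgprb2: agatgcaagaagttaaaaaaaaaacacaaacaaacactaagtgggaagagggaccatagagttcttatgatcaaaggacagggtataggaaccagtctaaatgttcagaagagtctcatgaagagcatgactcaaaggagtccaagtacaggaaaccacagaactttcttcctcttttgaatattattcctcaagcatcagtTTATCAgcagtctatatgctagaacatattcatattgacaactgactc 
Hdc: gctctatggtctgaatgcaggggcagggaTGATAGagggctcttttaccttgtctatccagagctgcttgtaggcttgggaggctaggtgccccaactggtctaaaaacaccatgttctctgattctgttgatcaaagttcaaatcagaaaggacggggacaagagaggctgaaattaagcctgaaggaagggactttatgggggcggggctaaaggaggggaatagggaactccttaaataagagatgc

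The letters searched were AGATAA or its form ending in G, AGATAG, and with T first TGATAA or likewise TGATAG, on both strands. Counting the base just before the start site as position -1, the match begins at -46 in Cpa3, -79 in Cma1, -103 in Mcpt4, -48 in Mrgprb2 and -221 in Hdc. RefSeq's table held 5 of the 6 genes of the rule, without Tpsb2, and 4 of these 5 had a match. Kit had none in either of its promoters and is not shown, so the 5 genes shown are a choice in which each has a match. Of the 12 genes with the largest rise over the other cell groups, described below, the table held 10, and 8 had a match in at least 1 promoter. Over all 27025 genes of the table the share was 29.75%, and over all 32851 promoters 26.54%. The E-box CATGTG, of the kind bound by MITF, was in none of the 5 and in 3 of the 10 genes (Fcer1a, Cyp11a1 and Prss34), beside 13.85% of all genes. The sequence TGANTCA, the AP-1 site, was in none of the 5 and in 3 of the 10 genes, beside 7.819% of all genes. These 3, Mrgprb1, Mrgprx2 and Mrgprb2, are of 1 family on chromosome 7. Their matches lie in a stretch of much the same letters, so they do not count as 3 separate matches. These matches describe letters only, and binding was not measured.

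The tables held 95844802 UMIs in mouse 1 and 86049057 in mouse 2, and the mast cells 269267 and 110687 of them. A mast cell had a median of 2312.5 UMIs in mouse 1 and 2974 in mouse 2, under the medians of all cells (3908.5 and 5199), and its median mitochondrial share was 2.57% and 2.11%. A count of 3 UMIs, taken as the upper limit for a gene with no UMI, is 11.1 CPM (UMIs of a gene per 1000000 UMIs of the sum) in the summed mast cells of mouse 1 and 27.1 CPM in mouse 2. The libraries shared 483 cell barcodes, none of them of a mast cell. Olfactory sensory neurons, which the tissue label names, were nearly missing: 0 cells of mouse 1 and 3 of mouse 2 had at least 2 of the neuron genes Omp, Carns1 and Stoml3. Scrublet called no doublet in either library, so doublets were kept, and leaving out the cells with the highest scores was an alternative.

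The members were then compared with 9 other cell groups chosen by marker rules of the same kind and called here by the cell type of those markers: 7990 chondrocytes, 2665 fibroblasts, 439 endothelial cells, 293 pericytes or smooth muscle cells, 277 Schwann cells, 214 neutrophils, 109 T or NK cells, 100 macrophages and 42 keratinised epithelial cells. Markers of other immune cells were low in the mast cells. The 6 macrophage markers summed to 22.3 and 9.03 CPM, with 3 and 1 of them detected, against 5582 and 8432 CPM in macrophages. The 8 T or NK markers summed to 14.9 and 72.3 CPM with 2 detected in each mouse, the 6 neutrophil markers to 63.1 and 36.1 CPM with 3 and 1 detected, and all 6 B cell markers were at 0. The 6 chondrocyte markers, all detected, summed to 1292 CPM in mouse 1 and 2855 in mouse 2, and the 6 fibroblast markers, of which 6 and 5 were detected, to 932 and 352 CPM. Barcodes of at most 50 UMIs, a measure of free RNA, held 5691 and 6124 CPM of the chondrocyte markers and 1228 and 1253 CPM of the fibroblast markers. What part free RNA or doublets had in the levels below was not tested. In mouse 1, 8 members also met the rule for chondrocytes and 3 that for fibroblasts, and in mouse 2 it was 2 and 1. Without them 63 and 29 members were left.

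The 6 genes of the rule chose the members, so their levels are described without a test. Mcpt4, a chymase, stood at 18409 CPM in mouse 1 (95% Poisson interval 17900 to 18929) and 19415 CPM in mouse 2 (18603 to 20254). Cma1, the other main chymase, was at 8196 and 12188 CPM, and the tryptase Tpsb2 at 8620 and 12603 CPM. Cpa3, carboxypeptidase A3, was at 4791 and 6252 CPM. Tpsb2, Cma1 and Cpa3 were higher in mouse 2 beyond the counting intervals, and Mcpt4 differed little. Kit, the receptor of stem cell factor, was at 1226 and 1247 CPM and detected in 61 of 74 and 27 of 32 members. Ms4a2, the beta chain of the IgE receptor, was at 286 and 271 CPM and detected in 36 and 15 members. With each cell thinned to 1000 UMIs the share of members with Ms4a2 was 21.6% and 15.6%, against 48.6% and 46.9% unthinned.

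Counts of the rule genes outside the members were low. Barcodes of at most 50 UMIs held 87.4 and 52.6 CPM of Mcpt4 and 22.9 and 13.5 CPM of Cpa3. Of chondrocytes, which should lack the gene and had median depths of 7271 and 11285 UMIs, 2.43% and 2.22% had an Mcpt4 UMI, and after thinning 0.435% and 0.376%. Among the other groups the highest level of Cma1 was 60.2 and 38.4 CPM, in T or NK cells of both mice. At the edge of the rule, 7 members of mouse 1 and 1 of mouse 2 had exactly 2 UMIs of Cpa3, with a median of 7 and 1 Mcpt4 UMIs. Just outside, 9 and 1 cells had 1 UMI of Cpa3 and at least 2 other markers, with a median of 3 and 9 Mcpt4 UMIs. All 5 other markers were detected in 35 and 13 members, and at least 4 in 62 and 28.

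**Figure D1:**
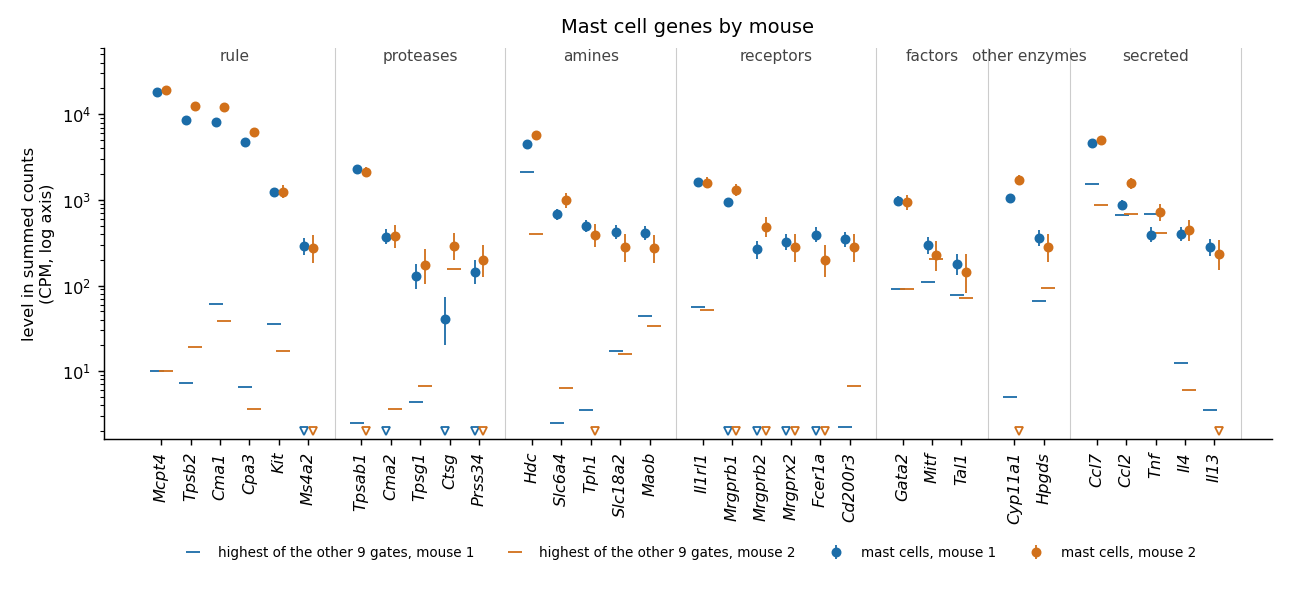
Levels in the summed mast cells of each mouse (CPM, log axis) with 95% Poisson intervals, for the genes of the rule and for genes grouped by role; dashes are the highest of the other 9 cell groups of that mouse, and open triangles mark highest levels under 2 CPM, 0 included. Mcpt4 stood at 18409 and 19415 CPM in mast cells, and for Tnf of mouse 1 a dash lies above the mast cells.

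Outside the rule, the members were compared with the mean of the other 9 groups, with macrophages and with T or NK cells. Sums of UMIs per mouse and group were fitted together in edgeR with the mouse as a block, and a gene was called at an adjusted p under 0.05 over 11364 genes. The test compares means of log levels, so groups at 0 weigh in it, while the ratios given are of the mean CPM. Against the mean of the other groups 1205 genes were higher in mast cells (10.6%) and 182 lower (1.6%). With the mast sum of mouse 1 left out 599 were higher. The lower count moved further, to 42 without mouse 1 and 44 without mouse 2, and to 546 without the members that met another rule, so it is not read further as a count. The gene groups described next were tested as single genes within that fit, and the median log2 ratio over all genes tested was -0.25. Genes at or near 0 in every other group passed the filter on low counts through the mast cells alone. Their calls as higher therefore add little to their levels.

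Of the 11 granule proteases listed outside the rule 6 could be tested, and 5 of these were higher, all above every other group in both mice. Tpsab1, a gene of the tryptase family that RefSeq lists as a transcribed pseudogene and whose transcript is therefore not read as a granule protein, was at 2288 CPM in mouse 1 (2111 to 2476) and 2132 CPM in mouse 2 (1869 to 2422). Both levels were far above the highest other group, at 2.48 and 1.75 CPM, with an adjusted p of 3.9e-15. Cma2, a chymase, was at 371 and 379 CPM (adjusted p = 1.6e-12), and the transmembrane tryptase Tpsg1 at 130 and 172 CPM (4.2e-09). The sixth tested, Gzmb, had 2 and 1 UMIs and was not called.

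Each protease cluster held both high and undetected genes. In the chymase cluster Cma1, Cma2 and Mcpt4 were high. Their neighbours Mcpt1 and Mcpt2, the proteases of the mucosal type, and Mcpt9 had no UMI in any of the 106 members, which allows up to 7.90 CPM over both mice. Mcpt8, the basophil protease, had 3 UMIs in 2 cells of mouse 1 and 0 in mouse 2. Ctsg, cathepsin G, which neutrophil precursors also store, was at 40.9 CPM in 7 members of mouse 1 and 289 CPM in 6 members of mouse 2. In the tryptase cluster Tpsb2, Tpsg1 and the transcript of Tpsab1 were detected and Prss28 and Prss29 were not. Prss34, a tryptase and basophil marker, had 39 UMIs in 8 members of mouse 1 and 22 UMIs in 3 members of mouse 2, that is 145 and 199 CPM, and was called higher (adjusted p = 1e-08). Prss34 and Mcpt8 were found together in 1 cell of mouse 1, which had 12067 UMIs, met another group's rule and was among the cells with the highest doublet scores. Related neighbours such as Tpsb2 and Tpsab1 or Cma1 and Cma2 may share reads, which was not tested, so the split between them is uncertain.

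**Figure D2:**
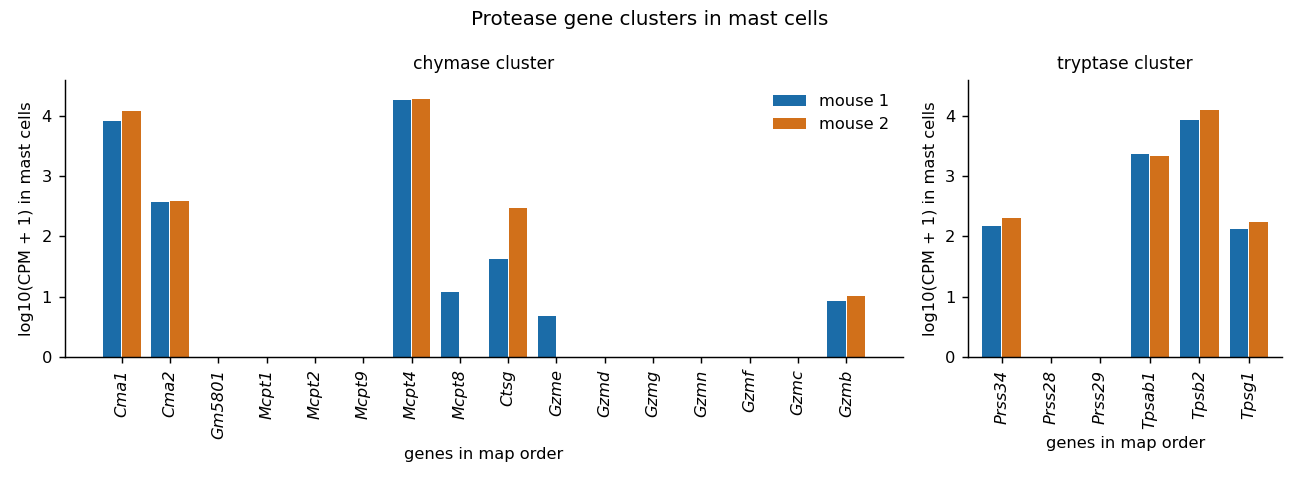
Levels of the protease genes of the chymase and tryptase clusters in the summed mast cells of each mouse, in map order (bars, log10 of CPM plus 1). Cma1, Cma2, Mcpt4, Ctsg, Prss34, the tryptases Tpsb2 and Tpsg1 and Tpsab1, listed by RefSeq as a transcribed pseudogene, were detected in both mice, Gzmb had 2 and 1 UMIs, and Mcpt1, Mcpt2, Mcpt9, Prss28 and Prss29 were at 0.

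Of the 10 amine genes listed 7 could be tested, and 6 of these were higher, each above every other group in both mice. Hdc, which makes histamine, was at 4460 CPM in mouse 1 (4212 to 4720) and 5647 CPM in mouse 2 (5213 to 6107) and detected in 68 and 32 members. Neutrophils were next, at 2122 and 394 CPM, and the ratio to the mean of the other groups was 35.2 (adjusted p = 3.4e-12). The serotonin genes followed the same pattern. Tph1, which makes the serotonin precursor, was at 498 and 388 CPM, and the serotonin transporter Slc6a4 at 680 and 985 CPM, where no other group passed 6.40 CPM for either gene. Slc18a2, which loads amines into granules, was at 423 and 280 CPM (39.0 times the mean of the others, adjusted p = 1.9e-12). Maob, an amine oxidase, was at 412 and 271 CPM, and Ddc, the decarboxylase, at 119 and 136 CPM. Maoa had 2 UMIs in mouse 1 and 0 in mouse 2 and was not called.

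Of 12 tested genes of serglycin and heparin synthesis 6 were higher, 4 of them above every other group in both mice, and none lower. Srgn, the core protein of granules, was at 1827 and 2222 CPM and higher than the mean (log2 fold change 3.60 ± 0.28 SE, adjusted p = 5.9e-10), though neutrophils reached 9196 and 2459 CPM. Ext1, which polymerises heparan chains, was at 3242 CPM in mouse 1 (3031 to 3465) and 1464 CPM in mouse 2 (1247 to 1707). Both lay above every other group, at most 551 and 357 CPM, and the log2 fold change was 3.40 ± 0.26 SE (adjusted p = 6.1e-10). Ndst2, the sulfotransferase that mast cell heparin needs, was at 115 and 226 CPM (17.8 times the mean, adjusted p = 6.9e-09), while Ndst1, its widely used relative, was at 44.6 and 90.3 CPM and not called. Hs3st1 at 227 and 127 CPM and Hs2st1 at 215 and 127 CPM were higher as well, the latter not without mouse 1. Schwann cells had more Hs2st1 than mast cells, at 466 and 331 CPM.

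Lysosomal enzymes and the secretion machinery were tested in the same way. Of 15 lysosomal genes 6 were higher, and 2 with mouse 1 left out; 1 of the 6 was above every other group. Cd63, a granule membrane protein, was at 836 and 840 CPM (log2 fold change 1.16 ± 0.24 SE, adjusted p = 0.0011), a call lost with mouse 1 left out. Schwann cells had similar levels of Cd63, at 719 and 891 CPM. Hexa, a hexosaminidase chain, was at 204 and 199 CPM (2.31 ± 0.29, adjusted p = 1.7e-06), level with macrophages at 214 and 264 CPM. Of 14 secretion genes 3 were higher, and 5 with DESeq2. Rab27b, which docks granules, was at 386 and 416 CPM against at most 26.1 and 46.9 CPM in any other group (adjusted p = 1.1e-13), whereas Rab27a, its partner in T cells, had 3 and 2 UMIs. The membrane fusion protein Stx3 was at 115 and 136 CPM (2.26 ± 0.39, adjusted p = 0.00013) and Rab44 at 130 and 163 CPM (1.88 ± 0.34, adjusted p = 0.00027), the latter not without mouse 1.

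IgE receptor signalling genes were higher in 14 of 24 tested, 6 of them above every other group. Fcer1a, the IgE-binding chain, was at 394 CPM in mouse 1 (322 to 476) and 199 CPM in mouse 2 (125 to 301), detected in 29 and 9 members. No other group passed 1.00 CPM (adjusted p = 6.2e-11). Fcer1g, the signalling chain that other Fc receptors use too, was at 572 and 1283 CPM, under the neutrophils at 2029 and 1360 CPM in both mice, and was higher than the mean of the groups. The kinase Prkcb was at 539 and 533 CPM (log2 fold change 5.25 ± 0.30 SE, adjusted p = 2.3e-12), Btk at 152 and 145 CPM (14.7 times the mean), the adaptor Lat2 at 119 and 199 CPM (15.2 times) and the phosphatase Inpp5d, which restrains the receptor, at 316 and 641 CPM (5.69 times). Fyn was at 364 and 280 CPM (2.48 ± 0.31, adjusted p = 1.8e-06). Lcp2, Plcg1 and Plcg2 were at 18.1 to 54.2 CPM in the 2 mice and not called.

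Cytokine receptors were higher in 9 of 16 tested. Il1rl1, the receptor of interleukin 33, was at 1604 CPM in mouse 1 (1457 to 1763) and 1590 CPM in mouse 2 (1364 to 1843). The mice overlapped, the highest other group was T or NK cells at 56.6 and 51.2 CPM, and the ratio to the mean was 114 (adjusted p = 8.6e-13). The shared beta chains Csf2rb and Csf2rb2 were at 657 and 867 CPM and at 364 and 226 CPM, 9.67 and 20.1 times the mean. Il3ra, the alpha chain for interleukin 3, was at 29.7 and 90.3 CPM (2.71 ± 0.62, adjusted p = 0.0035), a call lost without mouse 2. Il5ra had 4 and 1 UMIs and Il9r none.

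The peptide receptors that mark the connective tissue type were at 0 or near 0 in other cells. Mrgprb1 was at 936 CPM in mouse 1 (824 to 1059) and 1310 CPM in mouse 2 (1106 to 1541), detected in 57 and 25 members, with at most 1.31 CPM in another group. Mrgprb2, the mouse receptor for substance P and other cationic ligands, was at 264 CPM (206 to 333) and 488 CPM (367 to 637), detected in 37 and 18 members. Mrgprx2, called Mrgprb10 in older annotations, was at 323 and 280 CPM. All 3 were called by edgeR (adjusted p = 5.5e-14, 6.7e-11 and 1.8e-10). Mrgprx1, called Mrgprc11 in older annotations, was detected in 1 mouse: 45 UMIs in 15 members of mouse 1 (167 CPM, 122 to 224) and 0 in mouse 2, which allows up to 27.1 CPM. Of the 21 tested G protein-coupled and purinergic receptors, a list without Mrgprx1 and Mrgprx2, 7 were higher. Of these 7, 5 were above every other group in both mice. Besides Mrgprb1 and Mrgprb2, Adora3, an adenosine receptor, was at 96.6 and 136 CPM, the ATP channel P2rx1 at 66.9 and 54.2 CPM and the adhesion receptor Adgre5 at 319 and 325 CPM. Pericytes or smooth muscle cells held P2rx1 at 61.0 and 164 CPM, above the mast cells in mouse 2. The chemokine receptors Ccr1 and Ccr2 had no UMI.

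DESeq2's Wald test, with larger errors for genes at 0 in most groups, did not call 11 named genes of this comparison, with adjusted p from 0.0984 (Mrgprb1) to 0.328 (Ctsg). The others were Fcer1a, Mrgprx2, Mrgprb2, Prss34, Tph1, Il13, Rgs13, Gpr141b and Adora3. Gata1 was not called by DESeq2 either.

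Inhibitory and activating surface receptors were higher in 11 of 17 tested and integrins and adhesion genes in 6 of 18, with 1 lower. Of those higher, 4 surface receptors and 1 integrin or adhesion gene were above every other group in both mice. The median log2 ratio was 1.13 for the surface receptors and -0.40 for the integrins and adhesion genes. Cd200r3, an activating receptor of mast cells and basophils, was at 349 and 280 CPM (232 times the mean, adjusted p = 7.8e-12). Pilra was at 130 and 154 CPM and Lilrb4a at 137 and 289 CPM. Neutrophils had more Lilrb4a in both mice, at 360 and 404 CPM. Their Pilra, at 207 and 70.2 CPM, was above the mast cells in mouse 1 only. Itga2b, an integrin chain that platelets also use, was at 111 and 117 CPM (adjusted p = 4.3e-07) and Itgb7 at 96.6 and 108 CPM (2.80 ± 0.41, adjusted p = 1.5e-05). T or NK cells had more Itgb7 than mast cells, at 301 and 205 CPM. Itgae, the partner of Itgb7 on mucosal mast cells, had 6 UMIs in mouse 1 and 0 in mouse 2. Cd9, at 353 and 289 CPM, was the adhesion gene that was lower (-1.53 ± 0.41, adjusted p = 0.014), a call lost with either mouse left out.

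Transcription factors of mast cell fate were higher in 9 of 21 tested, 5 of them above every other group. Gata2 was at 980 CPM in mouse 1 (866 to 1106) and 940 CPM in mouse 2 (768 to 1139), overlapping between the mice, against 90.2 and 90.9 CPM in endothelial cells, the next group (adjusted p = 5.6e-15). Mitf was at 297 and 226 CPM (2.81 ± 0.30, adjusted p = 1.6e-07). Tal1, a partner of GATA factors, was at 178 and 145 CPM, 16.6 times the mean (adjusted p = 1.2e-10). Gata1 was found in 7 and 4 members at 40.9 and 117 CPM. Runx3, at 141 and 117 CPM, was higher than the mean but under T or NK cells at 191 and 185 CPM. Cebpa, a factor of basophils and myeloid cells, had 0 and 2 UMIs, and Spi1 14 UMIs in mouse 1 and 1 in mouse 2.

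Hpgds, which makes prostaglandin D2, was at 360 CPM in mouse 1 (292 to 439) and 280 CPM in mouse 2 (190 to 398) and above every other group (log2 fold change 6.18 ± 0.32 SE, adjusted p = 4.9e-13). Ptgs2, the inducible cyclooxygenase of the prostaglandin pathway, was at 52.0 and 45.2 CPM and not called. Of the leukotriene genes Alox5 had 2 and 2 UMIs and Ltc4s 2 and 0. Cyp11a1, the first enzyme of steroid synthesis, was at 1040 CPM in mouse 1 (922 to 1169) and 1708 CPM in mouse 2 (1473 to 1969) and detected in 58 and 30 members. Its highest level elsewhere was 5.01 and 1.75 CPM, in endothelial cells (adjusted p = 3.9e-15). Hpgds and Cyp11a1 were the 2 of 12 tested genes of eicosanoid synthesis, a list that held Cyp11a1, called higher. The median log2 ratio of this list was -0.57. Beside Hpgds and Cyp11a1, the signalling brake Rgs13, at 115 and 145 CPM, and the orphan receptor Gpr141b, at 137 and 181 CPM, stood out. Rgs13 and Gpr141b were among the 12 largest rises.

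Cytokines, chemokines and growth factors were higher in 8 of 28 tested. The median log2 ratio of the list, -0.87, lay under that of all genes, so the list was not raised as a whole. Ccl7, a monocyte chemokine, was at 4642 CPM in mouse 1 (4388 to 4907) and 4969 CPM in mouse 2 (4562 to 5402), above macrophages at 1532 and 878 CPM (log2 fold change 4.89 ± 0.45 SE, adjusted p = 1.9e-06). Barcodes of at most 50 UMIs held 502 and 362 CPM of it. Ccl2 was at 865 and 1563 CPM (3.27 ± 0.65, adjusted p = 0.0055), a call lost with mouse 2 left out or with no filter on low counts. Il4 was at 401 CPM (329 to 484) and 443 CPM (328 to 585), 174 times the mean of the others (adjusted p = 1.1e-13). Il13 was at 282 CPM (222 to 353) and 235 CPM (153 to 344), with at most 3.54 CPM in another group. Tnf was at 394 and 714 CPM and Csf1 at 583 and 253 CPM, both higher (adjusted p = 1.7e-06 and 6.3e-06). In mouse 1 neutrophils, at 681 CPM, exceeded the mast cells in Tnf. The type 2 cytokines Il5 and Il9 had no UMI, and Il6, at 37.1 and 72.3 CPM, and Cxcl1, at 85.4 and 1021 CPM, were not called. In mouse 2, 103 of the 113 Cxcl1 UMIs came from 4 members.

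Immediate early genes, which cells switch on within minutes of a stimulus, were high in the members. The 30 genes summed to 47035 CPM in mouse 1 (46219 to 47862) and 50720 CPM in mouse 2 (49401 to 52064). The other groups lay between 6167 and 18572 CPM in mouse 1 and between 4957 and 18675 CPM in mouse 2, all below the mast cells, and barcodes of at most 50 UMIs held 16936 and 15110 CPM. Of the 30 genes 20 were called higher, 18 of them above every other group in both mice, and 14 with mouse 2 left out. Fos was at 7725 and 7779 CPM (3.10 ± 0.37, adjusted p = 1.1e-05) against at most 2761 and 2753 CPM elsewhere. Jun was at 6622 and 6152 CPM (4.15 ± 0.31, adjusted p = 2e-09), Egr1 at 4587 and 4472 CPM (3.69 ± 0.43, adjusted p = 1.7e-05) and Klf6 at 3246 and 2981 CPM (3.51 ± 0.22, adjusted p = 1.5e-11). Junb, at 2852 and 4056 CPM, and Fosb, at 3287 and 3370 CPM, lost their calls with mouse 2 left out. Atf3, at 230 and 217 CPM, and Nfkbia, at 1196 and 2105 CPM, were not called. Without the members that met another rule the sums were 55676 and 59048 CPM. The cells went through enzymatic digestion, and its part in these levels was not tested.

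**Figure D3:**
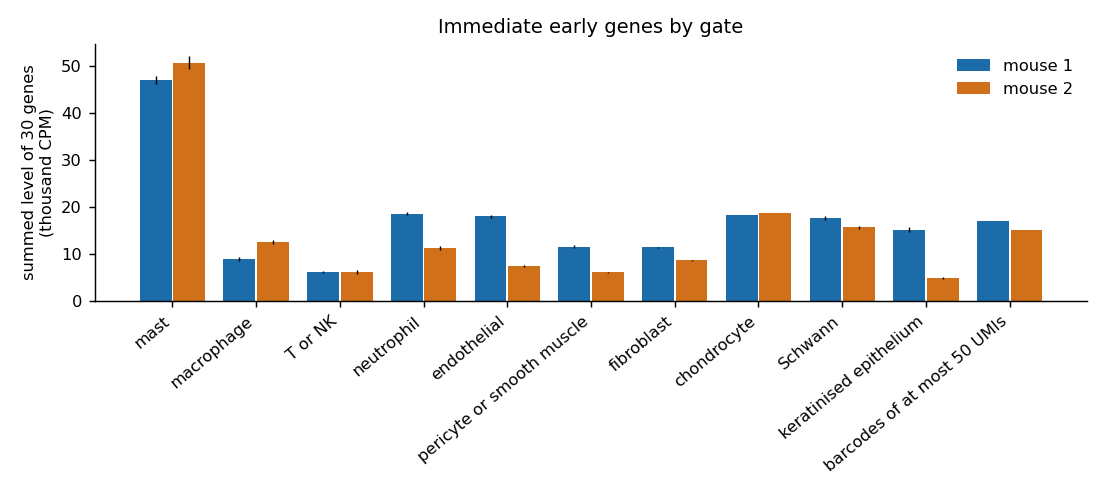
Summed level of the 30 immediate early genes (axis in units of 1000 CPM) in each cell group and mouse, with 95% Poisson intervals where cells were summed; the last group is the barcodes of at most 50 UMIs. Mast cells stood at 47035 and 50720 CPM, and no other group passed 18675 CPM.

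Of 14 heat shock chaperones 2 were higher against the mean, 5 with DESeq2, and 7 had an unadjusted p under 0.05 in edgeR. Over all 11364 genes tested 10.6% were higher in edgeR, near the share of this list, and 2636 had an unadjusted p under 0.05. Against T or NK cells 3 chaperones were higher, and up to 7 under the alternatives, beside 10.2% of all genes in the reported fit. The 2 called against the mean were Dnajb1, at 394 and 605 CPM (2.38 ± 0.27, adjusted p = 3e-07), and Dnajb4, at 70.6 and 172 CPM (1.51 ± 0.42, adjusted p = 0.017). The call of Dnajb4 was lost without mouse 2 and with a limit of 2000 UMIs or of 10% mitochondrial UMIs. Hspa1a was at 81.7 and 63.2 CPM and not called. In the reported fit none of 12 tested proliferation genes was called by edgeR in the 3 comparisons, nor by DESeq2, while another setting called at most 1 in each, and 1, 2 and 1 had an unadjusted p under 0.05 in edgeR. Mki67 had 3 and 1 UMIs and Cdk1 none, and Pcna, which also serves DNA repair, was at 178 and 217 CPM.

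Against macrophages, another tissue-resident immune cell of the myeloid kind, 692 genes were higher in mast cells (6.09%) and 525 lower (4.62%), with 315 to 488 higher and 157 to 256 lower with a mouse left out. The median log2 ratio over all genes was 0.21. Hdc had no UMI in macrophages and was at least 734-fold higher in mast cells, Tpsab1 at least 343-fold, Cyp11a1 at least 189-fold, Mrgprb1 at least 160-fold and Slc6a4 at least 117-fold, each against a floor of 3 UMIs over both mice. Hs6st2, another sulfotransferase of heparan chains, at 802 and 434 CPM, was at least 106-fold higher. Of the immediate early genes 18 of 30 were higher, and 11 with mouse 2 left out. Of the IgE receptor genes 5 were higher and 3 lower, and Fcer1g, at 572 and 1283 CPM in mast cells and 1046 and 1008 CPM in macrophages, was not called.

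Among the largest falls against macrophages were genes at 0 in mast cells. Pf4, a chemokine, was at 1031 and 3222 CPM in macrophages and at 0 in mast cells, at least 269-fold lower (adjusted p = 3.5e-07). Cybb, the oxidase chain of phagocytes, was at least 47.2-fold lower and Ccl9 at least 65.2-fold lower. All 6 tested MHC class II genes were lower. Cd74, the invariant chain, was at 18.6 and 18.1 CPM in mast cells, that is 5 and 2 UMIs, and at 16725 and 7905 CPM in macrophages (adjusted p = 0.046). With mouse 1 left out 1 of the 6 was called and with mouse 2 left out 2. Of 28 cytokines 4 were higher and 8 lower, the latter with Il1b, at 14.9 and 18.1 CPM against 1797 and 434 CPM (adjusted p = 1.6e-06). Of 11 genes of iron and redox metabolism 3 were lower, with Hmox1 at 81.7 and 199 CPM against 574 and 595 CPM (-2.24 ± 0.69, adjusted p = 0.043), a call lost without mouse 1, without the block and without members of another rule. DESeq2 did not call 9 named genes of this comparison (adjusted p 0.0844 to 0.648), Mrgprb1, Mrgprb2, Tpsg1 and Fcer1a among them.

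Against T or NK cells 1160 genes were higher (10.2%) and 637 lower (5.61%), with 483 to 893 and 160 to 307 with a mouse left out. The median log2 ratio was 0.07. Il4 had no UMI in the 109 T or NK cells and was at least 60.4-fold higher in mast cells, and Il13 was at 3.54 CPM in T or NK cells of mouse 1 and 0 in mouse 2. Cd69, an activation marker of lymphocytes, was higher in mast cells, at 279 and 289 CPM against 92.0 and 51.2 CPM (2.18 ± 0.49, adjusted p = 0.0042), and not with mouse 2 left out. Lysosomal genes were higher in 9 of 15 tested, 4 with mouse 1 left out. Immediate early genes were higher in 21 of 30. The largest falls were again in genes at 0 in mast cells. Ccl5, a chemokine of cytotoxic cells, was at 3675 and 1995 CPM in T or NK cells and 0 in mast cells, at least 359-fold lower (adjusted p = 5.3e-07), the granzyme Gzma at least 102-fold lower and Il2rb at least 54.5-fold lower. Gata3 and Ikzf2, with 2 and 18 UMIs in mast cells, were the transcription factors that were lower, Gata3 not without mouse 1. DESeq2 did not call 12 named genes here (adjusted p 0.193 to 0.499), among them Gzma, Il2rb, Mrgprb1 and Mrgprb2.

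Against the mean of all groups the 6 largest falls were in genes with almost no UMI in mast cells. Tagln, an actin-binding protein of contractile cells, was at 210 and 228 CPM over the other groups and 0 in mast cells, at least 27.7-fold lower (adjusted p = 0.018). The adhesion molecule Alcam was at least 21.3-fold lower (adjusted p = 0.017), and Gsap, Olfm1 and Ypel2 at least 6.83, 6.79 and 6.73-fold lower. Rasal2 had 1 UMI. All 6 calls were lost with mouse 1 left out, and those of Tagln, Alcam and Ypel2 also with mouse 2 left out. That of Tagln was lost with doublets left out.

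**Figure D4:**
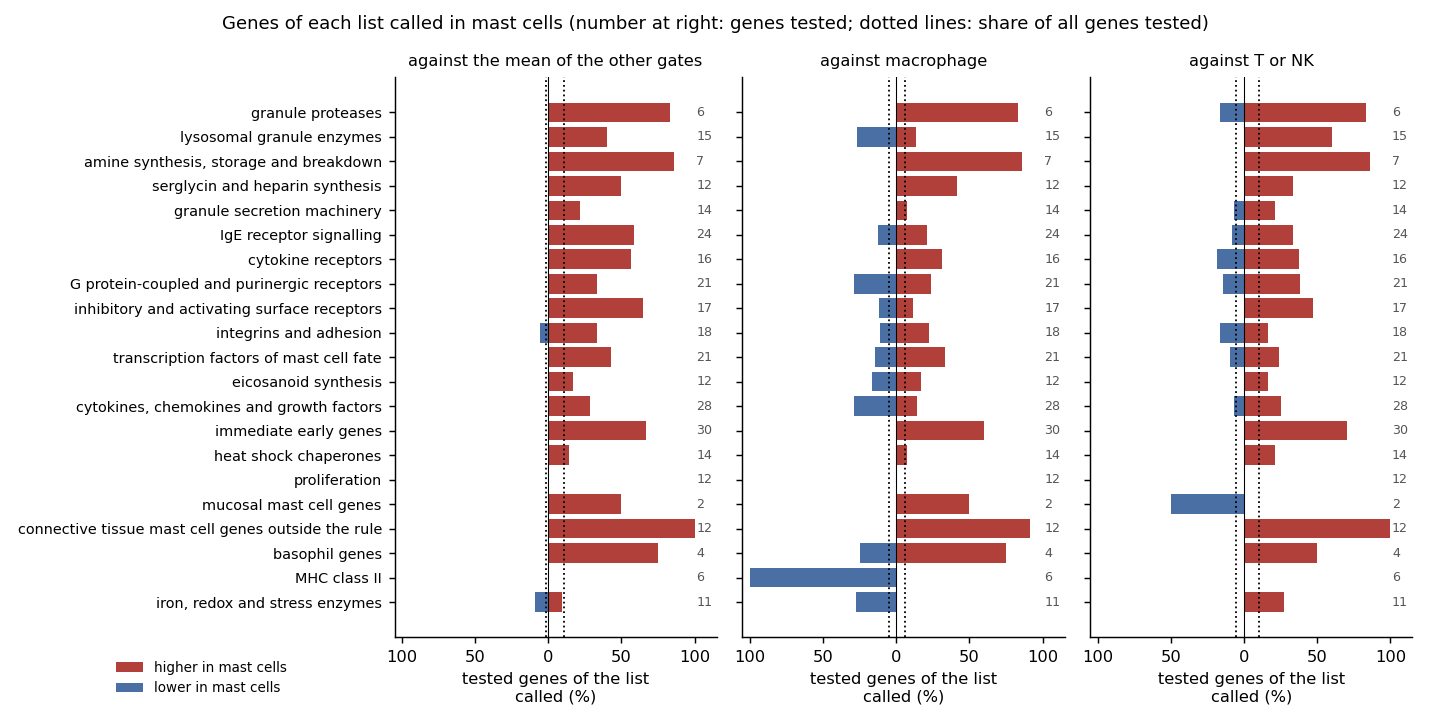
Share of the tested genes of each list called higher (red) or lower (blue) in mast cells in the 3 comparisons (bars, percent), with the number of genes tested at the right and the share of all genes tested as dotted lines. Connective tissue mast cell genes outside the rule were higher in 12 of 12, 11 of 12 and 12 of 12, and MHC class II genes were lower in 6 of 6 against macrophages.

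Of 13 connective tissue mast cell genes listed outside the rule, from Tpsab1 and Mrgprb1 to Hpgds, 12 were tested. They gave 12 calls against the mean (9 with DESeq2), 11 against macrophages and 12 against T or NK cells. The list was chosen with earlier results of these data known. It also holds genes of the mast cell lineage at large, such as Mitf, so these counts cannot tell the type of mast cell. Mitf was the member not called against macrophages, which had 110 and 202 CPM of it. Of the 5 mucosal genes listed 2 could be tested against the mean, and 1 of these, Itgb7, was higher, though under T or NK cells in both mice. Of 4 tested basophil genes 3 were higher, Prss34, Itga2 (not without mouse 1) and Cd69, and Mcpt8 was too sparse to test.

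The members differed widely from each other. The granule genes Mcpt4, Cma1, Tpsb2, Cpa3, Tpsab1 and Hdc together made up 0.322 to 12.6% of a cell's UMIs in mouse 1, with a median of 3.54%, and 0.331 to 18.5% in mouse 2, with a median of 6.08%. The immediate early genes made up 0.371 to 13.0% in mouse 1 (median 3.41%) and 0.122 to 15.2% in mouse 2 (median 5.52%). The ranges of the mice overlapped, and both the median and the highest shares were larger in mouse 2. Mcpt4 ran from 1 to 527 UMIs a cell in mouse 1 and from 1 to 231 in mouse 2. A matrix transcript was more uneven: of the 1645 Sparc UMIs in mast cells of mouse 2 a single cell held 1312. In the free RNA of near-empty barcodes Sparc stood at 18175 and 22199 CPM. Col1a1 was at 5173 and 6098 CPM in mast cells and at 7284 and 9471 CPM there. The 4 members of mouse 2 with the most Col1a1, chosen after their values were seen, held 575 of its 675 UMIs, and the other 28 had a median of 1. These 4 also held 103 of the 113 Cxcl1 UMIs, had 2 to 7 UMIs of Cpa3 and 1 to 4 of Mcpt4, and met no other group's rule. In mouse 1 the top 4 members held 617 of 1393 Col1a1 UMIs.

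**Figure D5:**
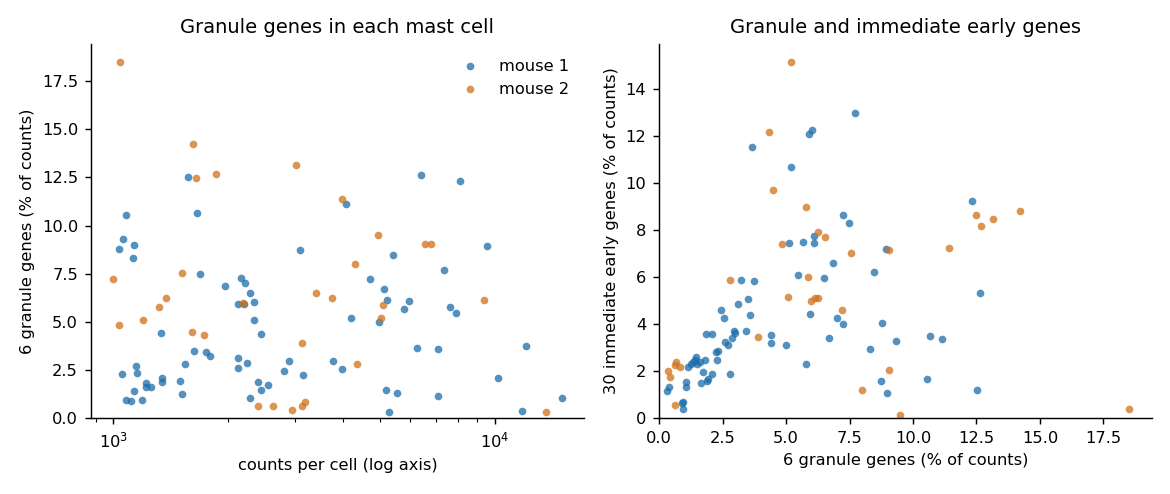
Each point is a mast cell: left, the share of its UMIs from 6 granule genes (percent) against its UMIs (log axis); right, the share from 30 immediate early genes against the granule share. Granule shares ran from 0.322 to 12.6% in mouse 1 and from 0.331 to 18.5% in mouse 2.

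Cytokine transcripts were found in part of the cells. Il4 was detected in 27 of 74 members of mouse 1 (36.5%) and 16 of 32 of mouse 2, after thinning 17.6% and 40.6%. In chondrocytes, deeper and expected to lack it, the share was 0.632% and 0.854%. Il4 and Il13 were detected together in 18 cells of mouse 1, Il4 alone in 9, Il13 alone in 10 and neither in 37. In mouse 2 these were 5, 11, 5 and 11 cells. In mouse 1 the cells with both had a median of 5190 UMIs and those with neither 1539, and in mouse 2 the medians were 3011 and 2399. Depth was thus higher where both were detected, and its part was not tested. Ccl7 was detected in 55 and 24 members, and fibroblasts had it in 41.6% and 31.0% of cells. Ccl7 and Ccl2 were detected together in 40 and 22 cells, and Mrgprb1 and Mrgprb2 together in 33 and 17.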

How the data were processed

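The deposited tables hold counts of 56953 genes in the barcodes of 1 library per mouse, taken here as UMI counts; per the submitters' processing notes they were made with Cell Ranger 7.0.0 and STAR on GRCm39. Members and lists were chosen with earlier results of these data known. Counts were summed per mouse and cell group (at least 20 cells in each mouse) and fitted with edgeR 4.0.16 (TMM scaling, quasi-likelihood test, R 4.3.3) in 1 model of 20 sums with the mouse as a block and 9 residual degrees of freedom, since the groups of a mouse share an animal. Cells that met another group's rule were left out of the groups, though not of the members, and 68 genes used in the rules were not tested. p-values were adjusted by Benjamini-Hochberg over all genes tested. They rest on the spread left after group and mouse effects, pooled over all 20 sums, most of which belong to other groups. Only 2 animals with 1 library each enter it. Two-sided tests were used. Near-empty barcodes are those of at most 50 UMIs.

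Named genes were, per comparison, the 12 largest rises and 6 largest falls with at least 50 CPM and 1 direction in both mice, and of each list up to 6 members with the highest level. Mcpt1, Mcpt2, Mcpt8 and Prss34 were always named. Mrgprx1, Mcpt9, Col1a1, Sparc and list members at low levels or not called were chosen after their values were seen. Of 324 symbols in 21 lists 321 were matched. Doublet scores were made with Scrublet in scanpy 1.11.5. The fit was also run on simulated counts with 1 spread for all genes and no mouse effect, and nothing here is drawn from that run. The alternatives were other cell limits, a stricter member rule, doublets or members of another rule left out, no filter on low counts, no block, DESeq2 1.42.0 and each mouse's mast sum left out.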

Additional observations from a re-analysis of the deposited data

How the results depend on the processing

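Counts of genes higher in mast cells, and of genes lower than in macrophages or T or NK cells, stayed within 1.5 times their value under every alternative with both mice. The count of genes lower than the mean of the other groups, 182, did not: it was 286 with limits of 500 UMIs and 200 genes, 368 with 2000 UMIs, 387 and 299 with mitochondrial limits of 10% and 25%, 546 without members that met another group's rule and 305 with DESeq2; the cause was not tested. With the mast sum of a mouse left out, the lone sum being assumed to vary like the other groups, higher and lower counts were 599 to 970 and 42 to 44 against the mean, 315 to 488 and 157 to 256 against macrophages, and 483 to 893 and 160 to 307 against T or NK cells. Fewer sums entered these fits. Without the replicate block, that is with the pairing of groups by mouse ignored, the counts were 1151 and 162, 631 and 451, and 1029 and 542. Among the calls that fit ended were those of Cd44 against the mean, of Egr1, Fosb, Junb, Srgn, Csf1, Ctsg and Pilra against macrophages and of Ccl7, Csf1, Ctsg and Rab44 against T or NK cells. Of 81 named genes called against the mean, 65 kept the call in every alternative with both mice that tested them. Against macrophages it was 48 of 68, and against T or NK cells 55 of 75. Some named genes had no result in an alternative, which was not counted as a lost call. Fewer kept their calls with either mouse left out. No named gene called in the reported fit changed direction. Changes of direction in genes called in neither fit were not counted. A fit of only the groups compared is the reported fit for the mean and was not run again there. At this depth a gene with no UMI may still lie at up to 11.1 CPM in mouse 1 and 27.1 CPM in mouse 2.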
